A study of Mus musculus with 12 samples.

Results

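The genes described are 9 members of the machinery with which cells make superoxide and hydrogen peroxide on purpose: the NADPH oxidase genes Cybb, Cyba, Ncf4, Nox1 and Noxo1, and the dual oxidase genes Duox1, Duox2, Duoxa1 and Duoxa2. They are 9 of the 55367 genes counted, listed by symbol and chosen because Cybb was lower in Foxe1 knock-out libraries and because Duoxa2 differed between clones. Cybb in the knock-out comparisons and Duoxa2 in the knock-out and clone comparisons are therefore described with no test. The other members were listed with the same comparisons known, so their tests are not independent evidence. Of the 9 genes, 7 passed the filter on low counts, and Ncf4 and Nox1 did not.

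The libraries came from mouse tongue organoids, epithelial tissue grown in culture in 3 dimensions, of the circumvallate papilla (CVP) or the foliate papilla (FoP). Each line gave 1 wild type culture (WT) and 2 clones labelled Foxe1 knock-out (genetic modification), which are clones 2.9 and 2.10 for CVP and clones 2.4 and 2.5 for FoP. A culture here means the wild type or 1 clone of a line. Each of the 6 has 2 libraries numbered 1 and 2, called duplicates, making 12 libraries of poly(A) RNA. Their titles do not say whether duplicates were grown apart or prepared from the same cells. Foxe1 encodes a forkhead transcription factor. Strain, age and the way Foxe1 was altered are not stated by the labels, which give the cell type as various. Wild type is not labelled as a clone, so the knock-out and the derivation of a clone cannot be told apart. The p-values measure the spread between these libraries, which may be technical, since duplicates come from the same clone or wild type and were perhaps grown together.

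The libraries held 59.3 to 73.6 M counts and 21421 to 22602 detected genes, and 17076 genes were tested. Foxe1 RNA was present in every knock-out library, at 487 to 1527 counts beside 989 to 1144 in wild type, so its level is no check of the label. Markers of epithelium summed to 9970 to 15200 CPM (counts scaled to library size). Those of fibroblasts summed to 3.95 to 9.31 CPM and those of endothelium to 0.973 to 3.11 CPM. The epithelial sum was higher for CVP clones (12800 to 15200) than for their wild type (9970 to 10500), while the FoP ranges overlapped. Of its 9 genes, 2 rose and 5 fell in the CVP knock-out (adjusted p under 0.05, edgeR). In FoP 1 rose and 1 fell. Log2 differences in CVP were 1.37 for Krt14, 0.58 for Krt5, -3.2 for Krt13 and -2.92 for Krt4. Whether the mix of epithelial cells changed was not tested. Library sizes were scaled by TMM.

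NADPH oxidases move electrons from NADPH across a membrane to oxygen. Cybb (NOX2) is the catalytic subunit of the phagocyte oxidase, and it needs Cyba (p22phox), a small membrane partner that also holds NOX1, NOX3 and NOX4 in place. Ncf4 (p40phox) is a cytosolic subunit of the phagocyte enzyme, and Noxo1 is the organizer subunit that serves Nox1 of colon epithelium. Dual oxidases release hydrogen peroxide directly at the apical face of epithelia, where it feeds peroxidases such as lactoperoxidase in saliva and airway fluid. DUOXA1 and DUOXA2 are the maturation factors that carry DUOX1 and DUOX2 out of the endoplasmic reticulum.

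The 4 dual oxidase genes form 1 cluster of 68.7 kb on chromosome 2 (GRCm38, GENCODE M21), arranged as 2 pairs. Duox2 (122279247 to 122298449, minus strand) lies head to head with Duoxa2 (122298900 to 122302885, plus strand), with 450 bases between them. Duoxa1 (122302191 to 122313730, minus strand) lies head to head with Duox1 (122315672 to 122347972, plus strand), with 1941 bases between them. Duoxa1 and Duoxa2 overlap by 695 bases at their 3′ ends. Whether reads were counted by strand is not stated in these sources, so reads in that overlap are uncertain between the pair. The other members lie apart: Cybb on chromosome X (9435252 to 9487771, minus strand), Cyba on chromosome 8 (122424776 to 122432930, minus strand), Ncf4 on chromosome 15, Noxo1 on chromosome 17 and Nox1 on chromosome X.

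Promoter windows from RefSeq (GRCm38.p6), 250 bases before to 50 bases after the start, were held for 8 of the 9 members. The 159 bases before Duoxa2 that lie outside RefSeq's longer span of Duox2 are shown because these neighbours ran together across the 12 libraries. They are part of the 450 bases between the GENCODE spans. The stretches before Cybb and Cyba are shown because Cybb was lower in every knock-out clone and Cyba was nearly lost in 1 clone. Each is printed 5′ to 3′ in the direction of its gene, as Duoxa2 chr2:122298741-122298899 (plus strand), Cybb chrX:9469325-9469574 (minus strand, inside the longer GENCODE span of the gene) and Cyba chr8:122432941-122433190 (minus strand). Capitals mark exact matches, on either strand, to TATAAA, to CCAAT or to GGGCGG.
Duoxa2: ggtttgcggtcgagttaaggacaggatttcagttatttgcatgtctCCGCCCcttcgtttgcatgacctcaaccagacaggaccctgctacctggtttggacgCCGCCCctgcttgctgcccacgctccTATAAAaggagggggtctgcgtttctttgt
Cybb: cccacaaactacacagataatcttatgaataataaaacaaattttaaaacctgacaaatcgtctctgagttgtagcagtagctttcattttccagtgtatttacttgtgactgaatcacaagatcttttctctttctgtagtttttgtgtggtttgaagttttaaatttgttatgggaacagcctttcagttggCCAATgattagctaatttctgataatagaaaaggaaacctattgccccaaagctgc
Cyba: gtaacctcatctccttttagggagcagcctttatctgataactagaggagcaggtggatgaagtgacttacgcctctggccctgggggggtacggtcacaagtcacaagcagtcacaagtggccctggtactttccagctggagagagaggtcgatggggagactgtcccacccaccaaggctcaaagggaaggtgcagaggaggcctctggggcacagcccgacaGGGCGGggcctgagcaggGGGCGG
TATAAA was present in the window of Duoxa2 alone among the 8 members, starting 30 bases before the annotated start, beside 13.6% of 32851 windows of this length. GGGCGG was in the windows of Duoxa2, Duoxa1, Cyba and Noxo1 (35.7% of all windows), and CCAAT in those of Duox2 and Cybb (37.4%). TAAACA, a forkhead core, was in none of the 8 windows, beside 13.4% of all windows, and so neither was the longer GTAAACA that contains it (3.65%). Other forms of the core were not searched for. These are matches of letters in short windows and say nothing of which factors bind there.

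In wild type organoids the dual oxidases and the membrane subunits were expressed together, and the cytosolic members Ncf4 and Noxo1 were low. Levels of different genes are compared as CPM per kb of exon. CVP wild type held Cyba at 18.6 ± 0.847 (SD, n = 2), Duoxa2 at 18.0 ± 0.847, Duox1 at 12.3 ± 0.858, Cybb at 11.9 ± 3.76, Duoxa1 at 10.6 ± 0.262 and Duox2 at 9.29 ± 0.566 CPM per kb. Cyba and Duoxa2 did not differ beyond their spread, nor did Cybb differ from Duox1 or Duoxa1. FoP wild type held Cyba at 15.0 ± 0.984, Duoxa1 at 10.1 ± 0.292, Duox1 at 9.92 ± 0.43, Duoxa2 at 5.19 ± 0.224, Duox2 at 3.71 ± 0.166 and Cybb at 2.63 ± 0.548 CPM per kb. There, Duoxa1 and Duox1 were within their spread of each other. Noxo1 was at 0.86 ± 0.0678 CPM per kb in CVP and 0.769 ± 0.188 in FoP wild type. Nox1 had 0 to 8 counts and Ncf4 0 to 18 counts in any of the 12 libraries. Both are too low to compare between groups: the 18 counts of Ncf4 came from 1 CVP wild type duplicate, whose partner had 2, and a count of 0 allows up to 3.

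**Figure D1:**
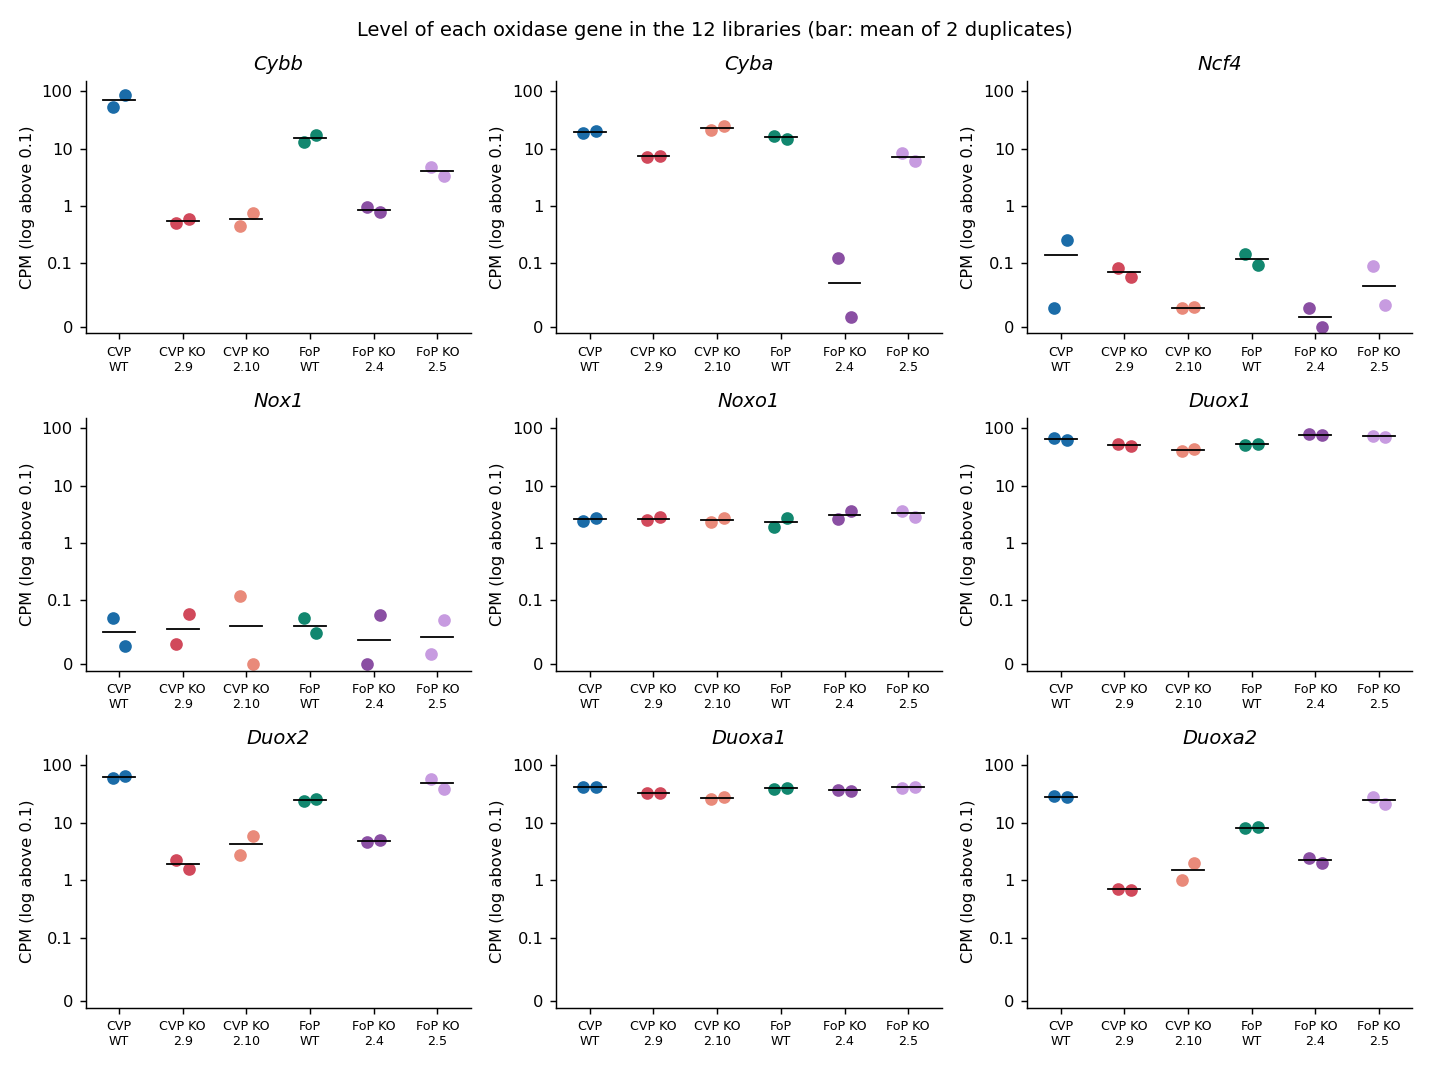
CPM of each of the 9 genes in the 12 libraries, 1 point a library and a bar for the mean of the 2 duplicates of a culture; the axis is logarithmic above 0.1 CPM and linear below. Cybb is lower in every knock-out culture than in its wild type, Cyba is near 0 in FoP clone 2.4, and Duox2 and Duoxa2 are low in 3 knock-out clones but not in FoP clone 2.5.

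The comparison of the 2 wild type cultures asked how far the lines differ before any knock-out. Cybb was at 53.5 and 84.4 CPM in CVP and 13.0 and 17.5 CPM in FoP, Duox2 at 60.2 and 65.6 against 24.3 and 25.9 CPM, and Duoxa2 at 29.6 and 27.7 against 8.01 and 8.51 CPM. The CVP duplicates were the higher ones for each of the 3 genes. The share of all tested genes separated in this way was not computed, so no weight is given to it. None of the 7 members passed the test across lines with edgeR, and 2 had an unadjusted p under 0.05, beside 6.68% of all tested genes called (3.77% higher and 2.91% lower in FoP). Cybb came nearest to a call, with a log2 fold change of -2.17 ± 0.69 (SE, adjusted p = 0.1, edgeR), and it passed with DESeq2 (adjusted p = 0.0409), with limma voom (0.00697), without clone 2.4 (0.00348) and without clone 2.5 (0.00183). Cybb and Duoxa2 were chosen on values that include these wild type libraries, so their p-values here are not independent of the choice. Duox1 was at -0.31 ± 0.11 (adjusted p = 0.0979, edgeR). It passed with DESeq2 (0.0489), without the first duplicate of clone 2.10 (0.04), without clone 2.9 (0.029) and without clone 2.10 (0.0171). Duoxa2 was at -1.8 ± 1.17 (adjusted p = 0.42, edgeR) and passed without clone 2.4 (0.0323) or clone 2.5 (0.0284). Knock-out clones enter this comparison mainly through the spread that the 4 arms share. Leaving out a clone removed its line's spread between clones, while the Duoxa2 value stayed at -1.8. With the 6 cultures fitted separately, so that the spread is that of duplicates alone, Cybb, Duox1, Duox2 and Duoxa2 passed, all lower in FoP.

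Cybb, the catalytic subunit, was lower in all 8 knock-out libraries than in the wild type of its line, as the choice of members fixed. CVP clones held 0.512 and 0.586 CPM (2.9) and 0.452 and 0.742 CPM (2.10), which is 30 to 48 counts a library beside 3655 and 6079 counts in wild type. In FoP, clone 2.4 held 0.942 and 0.774 CPM and clone 2.5 held 4.77 and 3.32 CPM. The 2 CVP clones were alike within their duplicates, while the 2 FoP clones did not overlap. Against its wild type, mean CPM was 126-fold lower in clone 2.9, 115-fold lower in clone 2.10, 17.8-fold lower in clone 2.4 and 3.78-fold lower in clone 2.5. The fitted log2 differences were -6.91 ± 0.68 in CVP and -2.65 ± 0.59 in FoP, given with no test. In FoP the value was -4.15 without clone 2.5 and -1.91 without clone 2.4. In bulk RNA, fewer cells that express Cybb and less RNA per cell cannot be told apart.

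Between the FoP clones, Cybb was 4.71-fold higher in clone 2.5 than in clone 2.4 (log2 2.24 ± 0.36, adjusted p = 0.00702, edgeR over 6 cultures). Cybb was chosen for its fall in these same knock-out libraries, so that p is not independent of the choice. The call was lost without the first (adjusted p = 0.0579) or the second duplicate of clone 2.4 (0.0663). Between the CVP clones the log2 difference was 0.12 (interval -0.89 to 1.13, adjusted p = 0.954), so a difference of up to about that size was not detectable.

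Cybb is best known from phagocytes, and the markers of those cells were largely absent. Ptprc and Tyrobp had 0 counts in all 12 libraries, and Ptprc, Csf1r, Spi1, Tyrobp and Adgre1 had 15 counts in total. Of 18 leukocyte markers, 11 had at most 10 counts in every library. The summed level of the 18 was nonetheless 320 to 392 CPM in CVP wild type and 64.8 to 114 CPM in CVP knock-out, and 202 to 234 against 106 to 172 CPM in FoP. That sum came almost wholly from Cd14, Cd68 and Lyz2, which epithelial cells can also express. Without these 3 genes it was 0.472 to 0.718 CPM in CVP wild type and 0.349 to 1.42 CPM in CVP knock-out, and 0.728 to 0.944 against 1.59 to 4.58 CPM in FoP. Lyz2, a lysozyme, had 1108 and 2149 counts in CVP wild type, 196 and 336 in FoP wild type and 0 in all 8 knock-out libraries. Cd68, a lysosomal membrane protein, fell by 2.8 ± 0.18 on the log2 scale in CVP (adjusted p = 5.58e-07, edgeR) and by 1.57 ± 0.18 in FoP (adjusted p = 5.66e-05). S100a8, of the same list, went the other way in FoP, by 3.82 ± 0.91 (adjusted p = 0.00823, edgeR), at 7 to 169 counts a library. In CVP it did not pass (1.13 ± 0.83, adjusted p = 0.295). S100a9 had 2 to 82 counts and passed in neither line (adjusted p = 0.738 in CVP and 0.138 in FoP). Of the cytosolic partners of the phagocyte enzyme, Ncf1 had 0 to 11 counts and Rac2 had 0 to 1, while Rac1 had 18233 to 26677. Whether Cd14, Cd68 and Lyz2 mark the cells that hold Cybb was not tested.

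**Figure D2:**
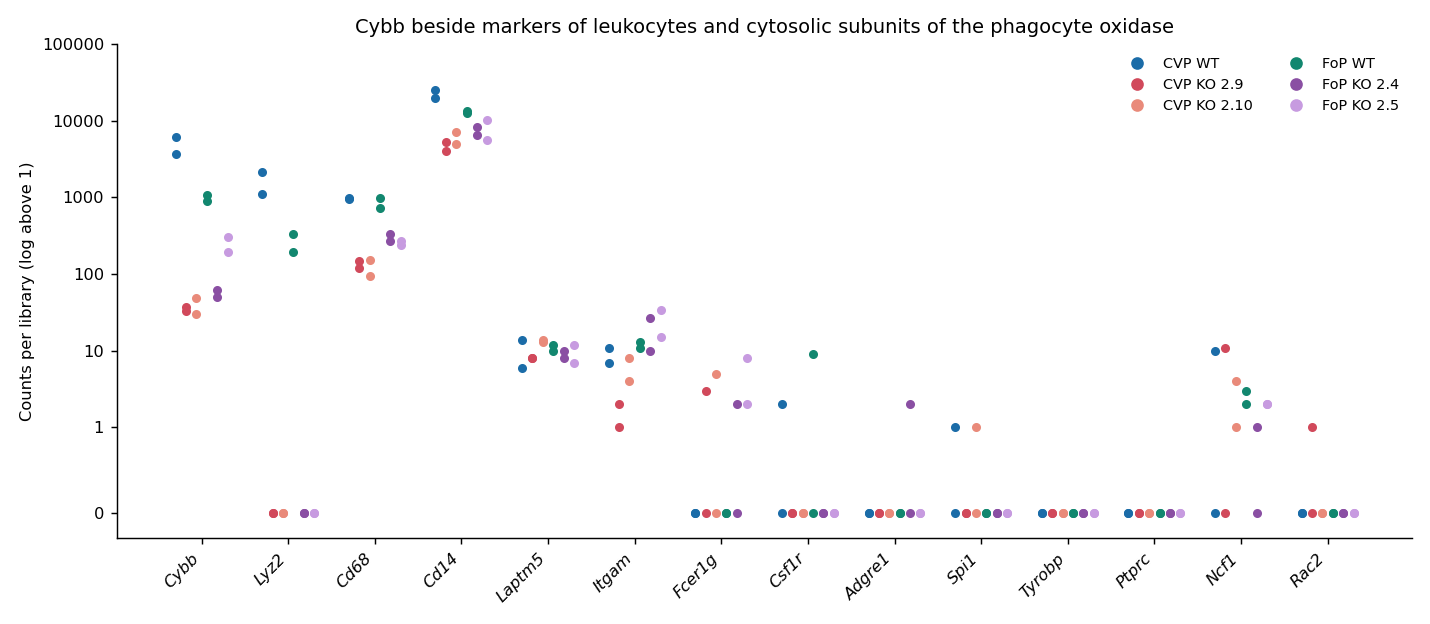
Counts per library (logarithmic above 1) of Cybb, of some of the leukocyte markers and of the cytosolic partners Ncf1 and Rac2, coloured by culture. S100a8 and S100a9 are among the markers not drawn. Cybb, Lyz2 and Cd14 are highest in CVP wild type, Cd68 is higher in both wild types than in the knock-outs, and Ptprc and Tyrobp are at 0 in all 12 libraries.

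The genes most like Cybb across the 12 libraries, by Pearson's r of log2 CPM over 11637 genes compared, were Itga3 (an integrin subunit, r = 0.987), Sox7 (a transcription factor, 0.981), Raph1 (0.98), Acsl1 (an acyl-CoA synthetase, 0.98) and Tmprss4 (a transmembrane serine protease, 0.976). The points share line, genotype and culture, so r describes these libraries only. All 5 had their highest culture mean in CVP wild type and their next highest in FoP wild type. Sox7 ran from 14.8 CPM in CVP wild type to 3.01 CPM in clone 2.10, and Tmprss4 from 20.3 CPM to 3.43 CPM in clone 2.9.

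Cyba, the membrane partner, differed between the clones of each line. It was at 18.7 and 19.9 CPM in CVP wild type, 7.12 and 7.48 CPM in clone 2.9, and 21.1 and 24.3 CPM in clone 2.10. FoP wild type held 16.3 and 14.9 CPM and clone 2.5 held 8.31 and 6.02 CPM, while clone 2.4 held 0.122 and 0.0155 CPM, which is 8 counts and 1 count. Clone 2.10 was thus above its wild type and the other 3 clones below, with clone 2.4 nearly without Cyba RNA. The summed duplicates of FoP wild type had 227 times the level of clone 2.4 (95% counting interval 119 to 497), and those of clone 2.5 had 105 times its level (54.8 to 229). Wild type stood 2.17 times above clone 2.5 (2.0 to 2.35), and CVP wild type 2.65 times above clone 2.9 (2.46 to 2.86). These intervals cover counting error only and take each count as independent. Low even counts were in excess in these data, so if counts came in pairs the intervals are too narrow.

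Between clones, Cyba was 3.11-fold higher in 2.10 than in 2.9 (log2 1.64 ± 0.17, adjusted p = 2.78e-05, edgeR over 6 cultures). It was higher in 2.5 than in 2.4 by 6.66 ± 0.33 on the log2 scale (adjusted p = 2.23e-08). That size rests on the 9 counts of clone 2.4, and it was 8.69 without the first duplicate of that clone and 5.86 without the second. The knock-out arms as a whole did not pass, at -0.36 ± 1.25 in CVP (adjusted p = 0.84, edgeR) and -2.12 ± 1.26 in FoP (adjusted p = 0.255), where the spread between clones enters the error. Without clone 2.9 the CVP value turned to 0.23, and with 6 cultures it was -0.59 (adjusted p = 0.00235). The FoP value was -2.96 without the first duplicate of clone 2.5 and -7.78 without that clone (adjusted p = 0.00373). It was -4.45 with the logs of 6 cultures averaged (adjusted p = 2.79e-09) and -4.76 with limma voom (adjusted p = 0.0356).

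Neighbours of Cyba were looked at after its values were seen. Clone 2.4 held Zc3h18 at 74.5 CPM, Rnf166 at 38.4 CPM and Ctu2 at 11.9 CPM, beside 82.7, 39.9 and 11.5 CPM in FoP wild type. These 3 genes differed between clones 2.5 and 2.4 by -0.16 to 0.02 on the log2 scale, and none passed. Mvd, a sterol synthesis enzyme whose 3′ end lies next to Cyba, was at 8.61 CPM in clone 2.4, 14.7 CPM in clone 2.5 and 14.8 CPM in wild type (log2 0.77 ± 0.13 between clones, adjusted p = 0.00241, edgeR over 6 cultures). The near absence of RNA thus covered Cyba and none of these 4 neighbours. Trhr2, Il17c and Snai3, also within 100 kb, had at most 1, 8 and 26 counts in a library, too low to tell.

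Noxo1 stayed low and even, from 1.92 to 3.69 CPM over the 12 libraries. The log2 difference between knock-out and wild type was -0.0027 in CVP (interval -0.41 to 0.41, adjusted p = 0.993, edgeR) and 0.47 in FoP (0.05 to 0.89, adjusted p = 0.118). Knock-out and wild type libraries overlapped in both lines. Its usual catalytic partner Nox1 and its usual activator Noxa1 had at most 8 and 4 counts.

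Duox2 and Duoxa2, the enzyme and its own maturation factor, were low in 3 of the 4 knock-out clones and high in the remaining one. Duox2 was at 60.2 and 65.6 CPM in CVP wild type, 2.23 and 1.57 CPM in clone 2.9, and 2.73 and 5.88 CPM in clone 2.10. In FoP it was at 24.3 and 25.9 CPM in wild type, 4.63 and 4.94 CPM in clone 2.4, and 58.5 and 39.0 CPM in clone 2.5. Clone 2.5 stood above its wild type, while clone 2.4 stood below it, and neither overlapped it.

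Duoxa2 followed the same order of cultures. CVP wild type held 29.6 and 27.7 CPM, clone 2.9 held 0.713 and 0.665 CPM, and clone 2.10 held 1.02 and 1.99 CPM. FoP wild type held 8.01 and 8.51 CPM, clone 2.4 held 2.42 and 2.01 CPM, and clone 2.5 held 28.6 and 21.1 CPM. Per length, Duox2 was 0.435 to 0.736 of Duoxa2 in all 12 libraries (median 0.567). The ratio moved 1.69-fold in all, while Duox2 itself moved 41.8-fold and Duoxa2 44.5-fold. Duox2 was also the gene most like Duoxa2 of those compared (r = 0.993), followed by Tmc5 (0.963), Lratd2 (0.956), the riboflavin transporter Slc52a3 (0.955) and Pax1 (0.95), over libraries that share cultures.

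**Figure D3:**
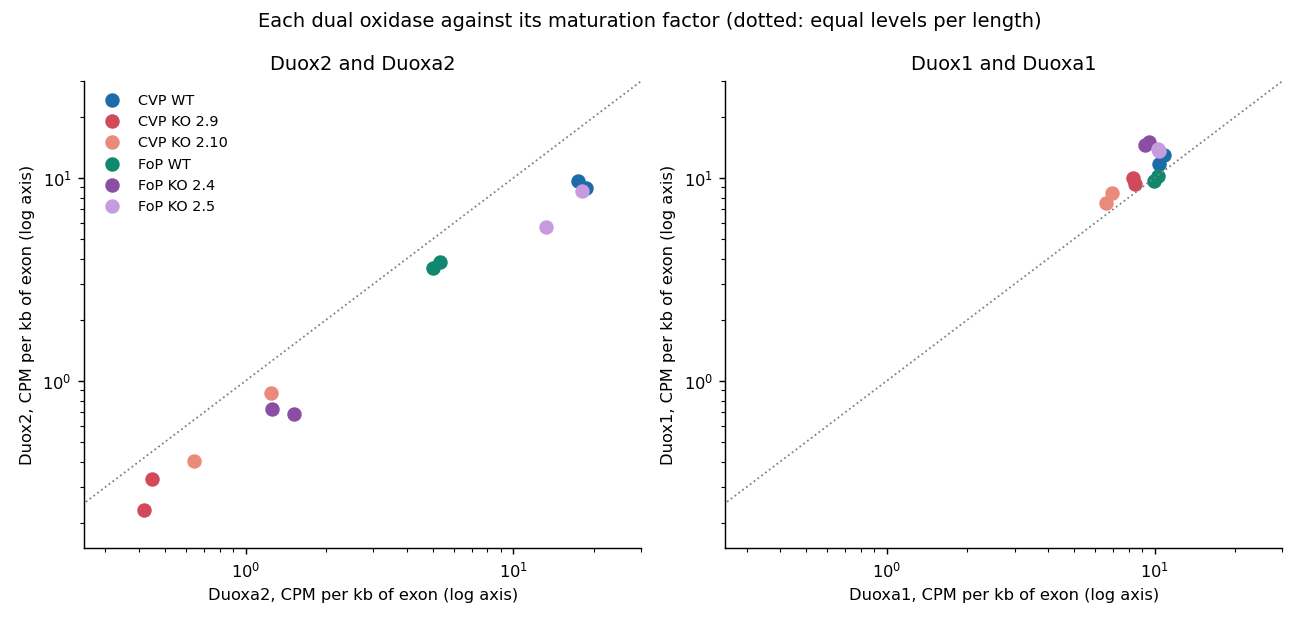
Level of each dual oxidase against its maturation factor in the 12 libraries, as CPM per kb of exon on logarithmic axes, coloured by culture; the dotted line marks equal levels. Duox2 and Duoxa2 move together along a line over more than a 40-fold range, and the Duox1 and Duoxa1 points lie in 1 small group.

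Duox2 fell in the CVP knock-out, by 4.34 ± 1.01 on the log2 scale (adjusted p = 0.00755, edgeR), with mean CPM 33.1-fold lower in clone 2.9 and 14.6-fold lower in clone 2.10. The call was lost without clone 2.9 (-3.87, adjusted p = 0.0711). For Duoxa2 the value was -4.7 ± 1.04, given with no test. The FoP arm gave 0.091 ± 0.98 for Duox2 (interval -1.84 to 2.02, adjusted p = 0.959), a mean over clones that differ. Clone 2.4 was 5.24-fold below wild type and clone 2.5 was 1.94-fold above it in mean CPM. The FoP value turned to -0.64 or -0.15 without the first or the second duplicate of clone 2.5 and to -2.39 without that clone (adjusted p = 0.0161). For Duoxa2 it went from 0.71 ± 1.02 to 0.035 without the first duplicate of clone 2.5 and to -1.9 without that clone.

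Duox2 was 10.2-fold higher in clone 2.5 than in clone 2.4 (log2 3.35 ± 0.34, adjusted p = 0.00172, edgeR over 6 cultures). Since Duox2 runs with Duoxa2, which was chosen for this difference, that p is not independent of the choice. Duoxa2 itself differed by 3.49 ± 0.23 on the log2 scale, given with no test. Between CVP clones Duox2 was at 1.17 ± 0.42 for 2.10 over 2.9 (adjusted p = 0.211, edgeR), with the second duplicate of clone 2.10 at 5.88 CPM against 2.73 CPM in the first. Without that first duplicate the difference was 1.63 (adjusted p = 0.0258), without the second it was 0.52, and with DESeq2 it was 1.18 (adjusted p = 0.0292).

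Duox1 and Duoxa1, the other enzyme and maturation factor of the cluster, moved over a smaller range than their neighbours. Duox1 was at 68.0 and 61.6 CPM in CVP wild type, 52.4 and 49.3 CPM in clone 2.9, and 39.7 and 44.4 CPM in clone 2.10. FoP wild type held 50.6 and 53.8 CPM, clone 2.4 held 78.8 and 76.4 CPM, and clone 2.5 held 73.0 and 71.7 CPM. The knock-out libraries lay below wild type in CVP and above it in FoP, with no overlap in either line.

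Duoxa1 was at 42.8 and 41.4 CPM in CVP wild type, 33.0 and 33.5 CPM in clone 2.9, and 26.3 and 27.6 CPM in clone 2.10. In FoP it was at 39.4 and 41.1 CPM in wild type, 38.0 and 36.5 CPM in clone 2.4, and 40.9 and 41.6 CPM in clone 2.5. It was thus lower in both CVP clones and overlapped wild type in FoP. Across the 12 libraries Duox1 moved 1.99-fold and Duoxa1 1.63-fold, and Duox1 was 0.97 to 1.58 of Duoxa1 per length.

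Duox1 fell by 0.48 ± 0.09 in CVP (log2, adjusted p = 0.000791, edgeR) and rose by 0.52 ± 0.09 in FoP (adjusted p = 0.00128). Duoxa1 fell by 0.49 ± 0.09 in CVP (adjusted p = 0.0009, edgeR) and was at -0.037 in FoP (interval -0.22 to 0.15, adjusted p = 0.813). The difference between the lines' effects was itself tested: it was 1.0 ± 0.13 for Duox1 (adjusted p = 0.000923, edgeR) and 0.45 ± 0.13 for Duoxa1 (adjusted p = 0.0382). For Duox2 the difference was 4.43 ± 1.49 (adjusted p = 0.0819), which was 3.7 without the first duplicate of clone 2.5 and passed without clone 2.4 (5.31, adjusted p = 0.00492), without its first (0.048) or second duplicate (0.0492) and with DESeq2 (0.00889). The call of Duoxa1 was lost without any 1 of the 4 wild type libraries (adjusted p from 0.0852 to 0.141), without the second duplicate of clone 2.10 (0.0531), without either duplicate of clone 2.5 (0.0633 and 0.0602) and without clone 2.5 (0.0951).

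Between clones, Duox1 and Duoxa1 were both lower in 2.10 than in 2.9, by 0.27 ± 0.07 (adjusted p = 0.0305, edgeR over 6 cultures) and 0.3 ± 0.06 (adjusted p = 0.00773) on the log2 scale. The call of Duox1 was lost without either duplicate of 2.9 (0.213 and 0.0518) or the first of 2.10 (0.209), and that of Duoxa1 without the second of 2.9 (0.0556) or the first of 2.10 (0.0625). Between the FoP clones they differed by -0.1 (interval -0.23 to 0.03, adjusted p = 0.431) and 0.14 (0.03 to 0.26, adjusted p = 0.183).

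The balance within the cluster therefore varied by culture. Per length, Duox1 was 1.21 times Duox2 in 1 CVP wild type library and 40.4 times in 1 library of clone 2.9. As a share of the summed per-length level of the 9 members, Duox1 was 13.9% to 16.3% in CVP wild type, 35.0% to 37.1% in clone 2.9 and 20.1% to 20.7% in clone 2.10. In FoP it was 20.5% to 21.3% in wild type, 53.5% to 53.7% in clone 2.4 and 22.8% to 27.0% in clone 2.5. Such shares also move with the other members, among them Duoxa2 and Cyba.

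Just outside the cluster, Sord, which encodes sorbitol dehydrogenase, fell in both lines, by 1.52 ± 0.14 in CVP (log2, adjusted p = 1.57e-05, edgeR) and 0.79 ± 0.14 in FoP (adjusted p = 0.00217). Its culture means were 149 CPM in CVP wild type, 57.3 in clone 2.9 and 46.9 in clone 2.10, and 132 CPM in FoP wild type, 68.4 in clone 2.4 and 83.6 in clone 2.5. Shf, on the Duox1 side, was at 49.5 to 62.9 CPM in every culture and passed in neither line (adjusted p = 0.544 and 0.0639). Within 100 kb, Terb2 beside the cluster and H2al1k and H2al1o beside Cybb had 0 counts.

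The members given a test were listed with these comparisons known, and Duox2 runs with Duoxa2, so counts of their calls are not independent evidence. Of the members with a test, 3 of 5 fell in the CVP knock-out (Duox1, Duox2 and Duoxa1) and 0 rose, beside 22.9% of all tested genes lower, 23.5% higher and 46.4% called either way. In the FoP knock-out 1 of 5 rose (Duox1) and 0 fell, beside 13.5% higher, 15.3% lower and 28.8% called either way. For the difference between lines 2 of 5 were higher in FoP, beside 7.28% of all genes higher, 8.49% lower and 15.8% called either way. Between CVP clones 3 of 6 were called, 1 higher and 2 lower in 2.10, beside 5.42% of all genes (2.89% higher and 2.54% lower). Between FoP clones 3 of 6 were called, all higher in 2.5, beside 7.26% of all genes (3.53% higher and 3.72% lower). Over the 5 members not chosen on the knock-out comparisons the median log2 difference was -0.48 in CVP and 0.091 in FoP, beside 0.028 and 0.012 over all tested genes. Knock-out and wild type libraries did not overlap for 3 of these 5 in CVP, beside 61.7% of all tested genes, and for 2 of the 5 in FoP, beside 49.7%. With the duplicates of a culture summed into 1 sample, 0 members were called in either knock-out comparison with edgeR, and 2 in CVP and 1 in FoP had an unadjusted p under 0.05. Under that fit Duox1 had an adjusted p of 0.0608 in CVP and 0.109 in FoP, Duoxa1 0.0794 and Duox2 0.156 in CVP.

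**Figure D4:**
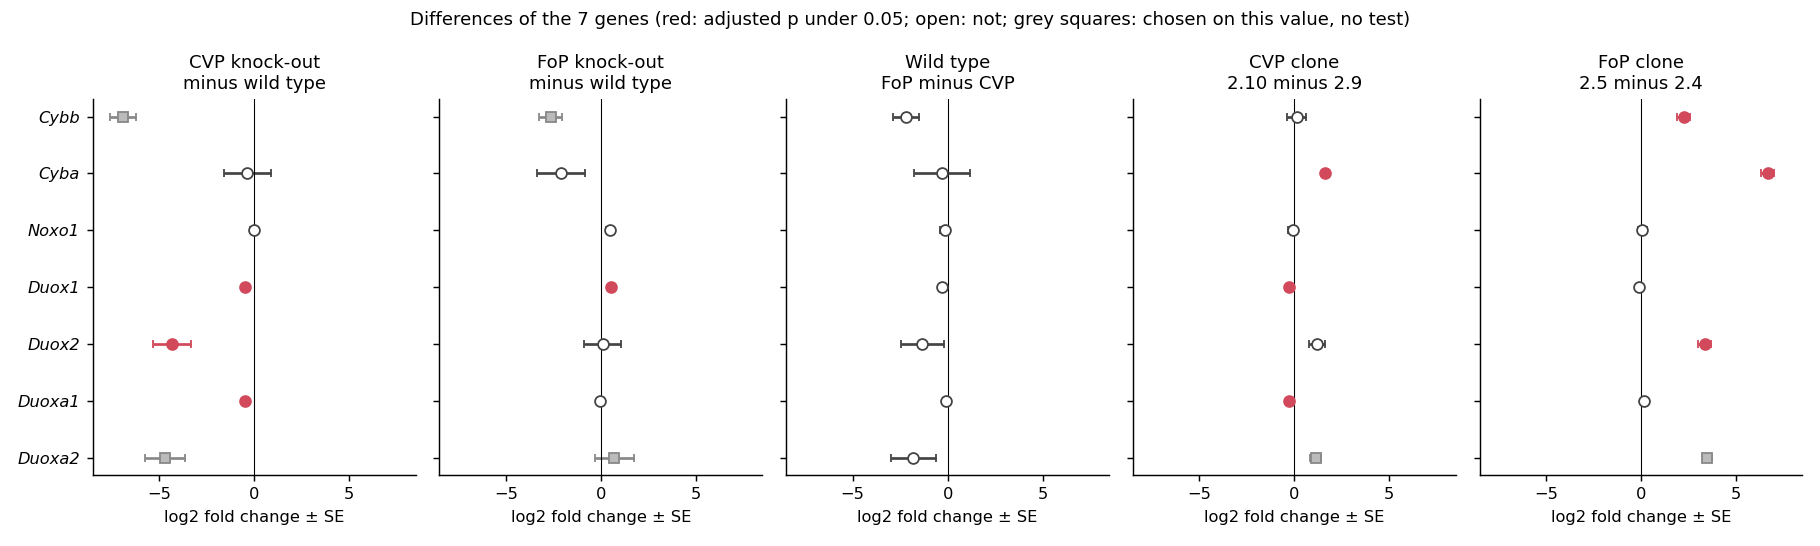
Log2 fold change ± SE of the 7 members that passed the filter in 5 comparisons, with adjusted p under 0.05 in filled red, others open, and values that chose the members as grey squares. Error bars of Cyba, Duox2 and Duoxa2 are wide in the knock-out panels, where the clones differ, and Duox1 lies below 0 in CVP and above 0 in FoP.

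Other genes of the pathway were described by lists. The counts of each list are read beside the genes called over all genes, 23.5% higher and 22.9% lower in CVP and 13.5% higher and 15.3% lower in FoP. Of 14 other oxidase subunits and regulators, 8 were tested, of which 4 rose and 2 fell in CVP (46.4% of all genes called either way) and 2 rose and 2 fell in FoP (28.8% either way). Rac1, a GTPase that activates NOX enzymes, fell by 0.38 ± 0.05 in CVP (log2, adjusted p = 3.24e-05, edgeR) and by 0.17 ± 0.05 in FoP (adjusted p = 0.0136). Its relative Rac3 fell by 1.09 ± 0.14 and 0.79 ± 0.14. Sh3pxd2b, a Noxo1-like scaffold, rose by 0.55 ± 0.09 and 0.38 ± 0.09. The FoP calls of Rac1 and Sh3pxd2b were lost without the first (adjusted p = 0.0881 and 0.0733) or the second wild type duplicate (0.0862 and 0.0578), and that of Rac1 without clone 2.4 (0.0629).

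Of 5 heme peroxidases, which use the peroxide, 2 were tested. Lpo, lactoperoxidase, went from 4.99 ± 0.446 CPM (SD, n = 2) to 2.62 ± 0.489 (n = 4) in CVP and from 6.04 ± 0.123 to 3.76 ± 0.374 CPM in FoP, a fall in both lines (log2 -0.93 ± 0.17, adjusted p = 0.000721 and -0.68 ± 0.17, adjusted p = 0.00961, edgeR). The FoP call was lost without the first (0.0586) or second wild type duplicate (0.0736). Pxdn, peroxidasin of the extracellular matrix, rose by 0.95 ± 0.11 and 0.53 ± 0.11.

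Genes that remove peroxide changed in both directions, 6 of 23 higher and 10 lower in CVP (23.5% and 22.9% of all genes) and 4 higher and 5 lower in FoP (13.5% and 15.3%), with medians of -0.13 and 0.08. Gpx2, the glutathione peroxidase of gut-type epithelia, went from 811 ± 29.1 to 279 ± 44.4 CPM in CVP and from 616 ± 30.9 to 352 ± 15.0 CPM in FoP (log2 -1.54 ± 0.11, adjusted p = 1.32e-06 and -0.81 ± 0.11, adjusted p = 0.000242, edgeR). Txnrd1, thioredoxin reductase, fell by 0.58 ± 0.05 and 0.72 ± 0.05. Cat, catalase, rose by 0.82 ± 0.12 and 0.5 ± 0.12, and its FoP call was lost without the first (adjusted p = 0.0637) or second wild type duplicate (0.0614).

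Genes of the NRF2 pathway, the transcriptional response to oxidants, were 11 in number, of which 7 fell and 0 rose in CVP (median -0.64, beside 22.9% of all genes lower and 23.5% higher) and 7 fell and 1 rose in FoP (median -0.32, beside 15.3% lower and 13.5% higher). Gstm1, a glutathione transferase, fell by 1.23 ± 0.13 in CVP (log2, adjusted p = 3.76e-05, edgeR) and 0.61 ± 0.14 in FoP (adjusted p = 0.00674). Nqo1, a quinone reductase, fell by 0.82 ± 0.11 and 0.54 ± 0.11, and Osgin1 by 0.74 ± 0.1 and 0.65 ± 0.1. Without the second FoP wild type duplicate the FoP calls of Gstm1 (0.0538) and Nqo1 (0.051) were lost.

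Of 13 genes that supply NADPH, 6 fell and 2 rose in each line, beside 22.9% of all genes lower and 23.5% higher in CVP and 15.3% and 13.5% in FoP. Idh1, the cytosolic isocitrate dehydrogenase, fell by 0.81 ± 0.05 in CVP (log2, adjusted p = 5.56e-07, edgeR) and 0.51 ± 0.05 in FoP (adjusted p = 2.92e-05), and Rpia by 0.34 ± 0.07 and 0.32 ± 0.07. Nnt, the mitochondrial transhydrogenase, rose from 4.16 ± 1.03 to 16.0 ± 2.67 CPM in CVP and from 5.16 ± 0.269 to 10.2 ± 0.813 CPM in FoP (adjusted p = 4.54e-06 and 0.000968, edgeR).

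Among 20 genes of innate sensing and cytokine signalling, 19 were tested, of which 2 rose and 7 fell in CVP (median -0.16) and 6 rose and 0 fell in FoP (median 0.2). Over all tested genes 23.5% rose and 22.9% fell in CVP, and 13.5% rose and 15.3% fell in FoP. The receptors Tlr2 and Tlr3 rose in both lines, Tlr2 by 1.01 ± 0.13 and 0.96 ± 0.13 (log2, adjusted p = 4.99e-05 and 0.000204, edgeR) and Tlr3 by 1.02 ± 0.09 and 0.47 ± 0.09. With the duplicates summed per culture 2 pathway genes were called in FoP, beside 37 with the duplicates kept apart.

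**Figure D5:**
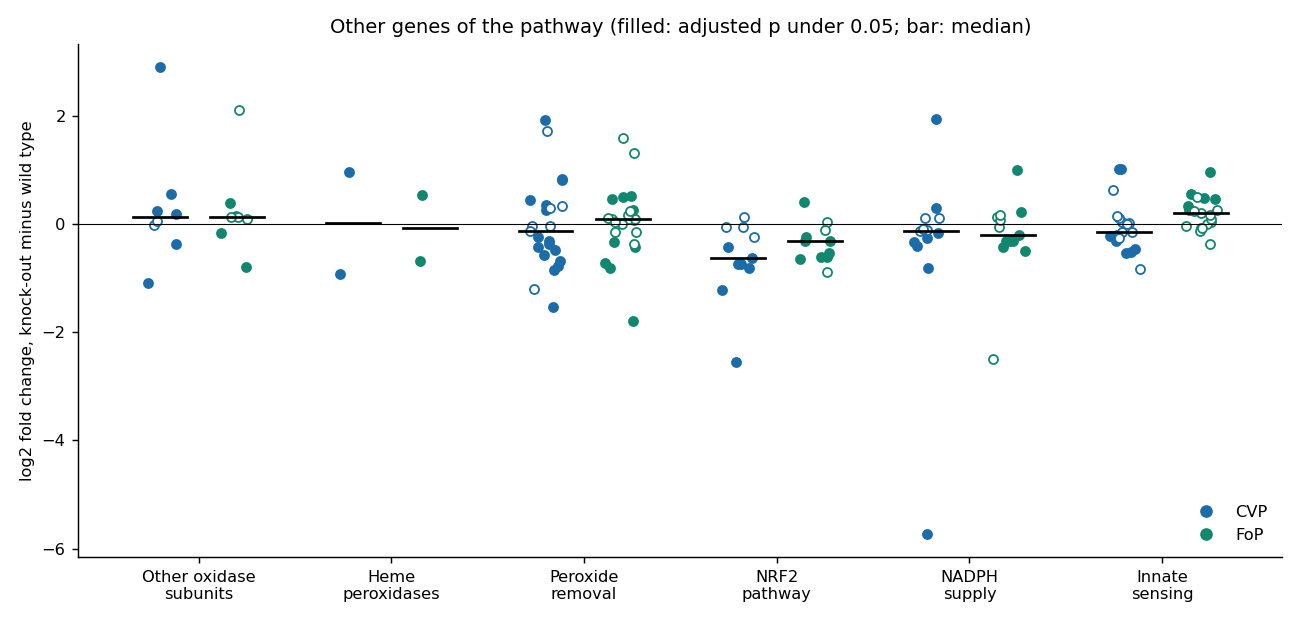
Log2 fold change, knock-out minus wild type, of each tested gene of 6 pathway lists in CVP (blue) and FoP (green), filled where the adjusted p is under 0.05, with a bar for the list's median. The NRF2 list has its median below 0 in both lines, at -0.64 and -0.32.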

How the data were processed

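RNA sequencing of 12 organoid libraries was analysed from the table of raw counts deposited by the authors, with 55367 genes. The kit was stranded and selected poly(A) RNA, per the labels' protocols. STAR, featureCounts and hg38 are named, per the submitters' processing notes, with no version. The symbols in the table are mouse symbols, 96.1% of which match exactly 1 gene of GENCODE M21 (GRCm38), used here for positions and exon lengths.

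Groups followed line and genotype (4 arms). Genes were filtered with filterByExpr, scaled by TMM and fitted with the robust quasi-likelihood functions of edgeR 4.0.16 (R 4.3.3), with Benjamini-Hochberg adjustment over 17076 genes and a threshold of 0.05. Clones were compared in a fit of the 6 cultures. Standard errors were approximated by dividing each log2 fold change by the square root of F, and intervals are 95%. The scripts were tested on simulated data. Duplicates differed by more than sampling noise. Low even counts exceeded odd ones (20289 values of 2 against 20007 of 1, 10030 of 4 against 6626 of 3), so counts were also halved.

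The members and gene lists were chosen with earlier results of these data known. Named are all members, at most 3 genes a list among those called the same way in both lines, protein-coding neighbours within 100 kb of the dual oxidase cluster or Cybb, and the 5 genes most like Cybb and Duoxa2. Other genes were named after their values were seen, and some genes of the lists are not reported here. Replicate numbers did not pair cultures (1 of 15 pairs of cultures had r over 0.1). Alternatives were DESeq2 1.42.0 size factors and Wald test, no filter, a filter of 1 CPM in 4 libraries, limma 3.58.1 voom with culture as block, 6 cultures, 1 line per fit, the replicate block, duplicates summed, halved counts, and each library or clone left out.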

Additional observations from a re-analysis of the deposited data

Results flagged for a closer look

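The knock-out effect differed between the lines for both genes of the Duox1 and Duoxa1 pair, by a test of the difference itself in edgeR. For Duox1 the FoP effect minus the CVP effect was 1.0 ± 0.13 on the log2 scale (adjusted p = 0.000923), from 0.52 in FoP and -0.48 in CVP. All 4 FoP knock-out libraries were above both of their wild type libraries and all 4 CVP knock-out libraries below theirs. Summing the duplicates of each culture ended the call (adjusted p = 0.184). For Duoxa1 the difference was 0.45 ± 0.13 (adjusted p = 0.0382), from -0.037 in FoP and -0.49 in CVP. That call was also lost with limma voom (0.0575) and with the duplicates summed (0.39).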

How the results depend on the processing

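Each line has 1 wild type culture and 2 knock-out clones, which limits every knock-out comparison, and calls or values for Cyba, Duox2 and Duoxa2 follow which clones enter. Of the values of single genes under an alternative, 2007 kept their direction and, where tested, their side of the threshold. A further 63 lost the call, 27 gained it, 20 changed sign, and 5 of those given with no test moved by more than the spread between libraries. Where no value shows why a result moved, the cause was not tested.

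With the duplicates summed per culture (each wild type arm then has 1 sample, assumed to vary like the clones), genes called fell to 3420 in CVP, 372 in FoP, 0 for the difference between lines and 0 between wild types, where 2663 and 1643 had an unadjusted p under 0.05 in edgeR. Members called were then 0 in CVP, 0 in FoP and 0 for the difference, where 1 member had an unadjusted p under 0.05, and pathway genes called were 26 in CVP and 2 in FoP. All genes called stood at 7929, 4921, 2692 and 1140 in these comparisons with the duplicates kept apart, and pathway genes at 48 and 37.

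With limma voom the difference had 1457 genes called and the wild types 512, and with the 6 cultures these were 4424 and 2788. DESeq2 called 2030 genes between wild types. Members called were 2 in FoP with voom and with 6 cultures, and 3 without clone 2.5. For the difference 1 member was called with voom and 4 with 6 cultures. Between wild types 2 were called with DESeq2, 1 with voom, 4 with 6 cultures, 1 without clone 2.9 and without clone 2.10, and 2 without clone 2.4 and without clone 2.5. All genes called also rose with the 6 cultures, from 2692 to 4424 for the difference and from 1140 to 2788 between wild types. Totals over all genes are not given here for FoP or without a clone. These counts of members are therefore not read as results about the members. Without a filter the CVP clones differed in 1494 genes and the FoP clones in 1913, and the FoP clones in 2028 with 1 line per fit.

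The replicate block moved the members called for the difference between lines from 2 to 1 (Duoxa1, adjusted p = 0.0539). It changed the call of no other member in the 6 comparisons. Correlations of deviations between cultures with the same numbers ran from -0.0556 to 0.114.

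Leaving out each library in turn gave 5238 to 7975 genes called in CVP, 2668 to 5079 in FoP, 1103 to 2903 for the difference, 101 to 1235 between wild types, 549 to 1026 between CVP clones and 509 to 1627 between FoP clones. It gave 1 to 3 members for the difference, 0 to 1 between wild types, 1 to 3 between CVP clones, and 22 to 38 pathway genes in FoP.

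Signs changed for Cyba in CVP without clone 2.9 (0.23) and for Duox2 in FoP with voom (-0.78), with 6 cultures (-0.72), without clone 2.5 (-2.39) and over libraries left out (-0.64 to 0.45). Duoxa2 in FoP changed with voom (-0.22), with 6 cultures (-0.15) and without clone 2.5 (-1.9), and Duoxa1 in FoP without clone 2.4 (0.04). Noxo1 in CVP changed with the stricter filter (0.005), without clone 2.10 (0.041) and over libraries left out (-0.081 to 0.08). Over libraries left out Noxo1 ran from -0.43 to 0.069 between wild types, -0.22 to 0.03 between CVP clones and -0.17 to 0.33 between FoP clones, and Cybb from -0.28 to 0.43 between CVP clones.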

Other observations

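Nox4, an oxidase that also works with Cyba, differed by clone as well. It was named after its values were seen. Clone 2.9 held 204 and 208 counts, clone 2.10 held 684 and 628, and CVP wild type 38 and 88. In FoP, clone 2.4 held 229 and 290 counts, clone 2.5 held 34 and 49, and wild type 46 and 26. Clone 2.4, in which Cyba was nearly absent, thus had more Nox4 RNA than its wild type, while clone 2.5 overlapped it.

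Duox2, Duoxa2 and Foxe1 are also expressed in the thyroid. Of other thyroid genes, Tshr, the thyrotropin receptor, had at most 1 count in a library, and the transcription factor Nkx2-1 had 0 in all 12, which allows up to 3 counts in each. Slc26a4, the anion exchanger pendrin, had 84 and 42 counts in FoP clone 2.5, 10 and 14 in CVP clone 2.10 and at most 14 in the other libraries.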
